A study of Mus musculus with 21 samples.

Results

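The 5 genes described here were the core pluripotency factors Pou5f1, Sox2, Sall4, Utf1 and Lin28a, followed across 21 mRNA sequencing libraries of mouse embryonic stem cells. They were chosen by name, as the rows of the count tables whose Ensembl ID carries one of these symbols, and made up 5 of 31053 gene IDs. All 5 passed the filter on low counts that left 10643 genes for testing.

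Pluripotent cells are held in that state by transcription factors that bind together at the enhancers of shared target genes. Pou5f1 encodes the POU-domain factor OCT4 and Sox2 its HMG-box partner, and the pair binds DNA side by side. Sall4 encodes a zinc-finger factor that binds AT-rich DNA and recruits the NuRD repressor complex. Utf1 encodes a chromatin-bound protein restricted to pluripotent and germ cells, and is a long-known target of OCT4 and SOX2. Lin28a encodes an RNA-binding protein that blocks maturation of the let-7 microRNAs, which in turn repress Lin28a.

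All libraries came from E14Tg2a, a male embryonic stem cell line of 129 background with a destabilised GFP (GFPd2) knocked into 1 allele of Rex1, the gene Zfp42, so every group carries that allele. Per the labels, cells were kept in NDiff227 medium with the GSK3 inhibitor CHIR99021 (CH, 3 µM) and the MEK inhibitor PD0325901 (PD), together called 2i. They were then passaged with CH, PD and the cytokine LIF given and withdrawn in turns. The series text speaks of zero passage, 1 month and 2 months of culture, to ask how different media keep cells pluripotent. There were 7 groups of 3 libraries: 2i+LIF PO, then 2i+LIF, CH+LIF and LIF, each as LP and as HP. PO was read as zero passage, since it occurs in 2i+LIF alone, while LP and HP are used as named because the labels assign neither a length. Nothing states that replicates were separate cultures, so p-values measure the spread between these libraries, which may be technical. The PO file names also carry another number than those of the other groups. It may mark a separate batch, and any such batch and PO cannot be told apart.

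Libraries held 1132126 to 3783043 gene counts, with a median of 1763531. Replicate 1 of 2i+LIF PO stood apart with 39.1% mitochondrial counts, and replicate 1 of 2i+LIF LP with 31.7% of its counts in the single gene Gm42418. Dusp6, a gene switched on by the ERK pathway that PD blocks, did not follow the labels throughout. It had 2.85 ± 0.75 CPM (counts scaled to library size, SD, n = 3) in 2i+LIF PO and 3.37 ± 1.36 in 2i+LIF HP, but 2i+LIF LP was mixed, at 0.701 CPM for replicate 1 and 34.4 and 26.3 for the other two. LIF HP is labelled without PD, yet Dusp6 had 0, 1.23 and 0 CPM in its libraries, against 37.1 ± 5.75 in CH+LIF HP. Group names below are therefore names as labelled. These are bulk RNA values, in which fewer cells expressing a gene and less RNA per cell cannot be told apart.

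The upstream sequences of Utf1, Lin28a and Sox2 are shown because the first pair had the widest spans of group means and Sox2 the narrowest. They are RefSeq promoter sequences on GRCm38.p6, cut so that they end before the gene's first base in both RefSeq and GENCODE M21. Capitals mark GC boxes (GGGCGG, or CCGCCC on the other strand) and SOX motifs (ACAAAG or CATTGT on the strand shown or its complement). The Utf1 stretch is chr7:139943606-139943788 (+), the Lin28a stretch chr4:134018842-134019066 (-) and the Sox2 stretch chr3:34649745-34649994 (+).
Utf1: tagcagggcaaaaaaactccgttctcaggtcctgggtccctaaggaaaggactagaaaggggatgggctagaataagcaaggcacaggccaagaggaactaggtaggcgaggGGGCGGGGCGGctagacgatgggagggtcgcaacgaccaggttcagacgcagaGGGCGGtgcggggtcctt
Lin28a: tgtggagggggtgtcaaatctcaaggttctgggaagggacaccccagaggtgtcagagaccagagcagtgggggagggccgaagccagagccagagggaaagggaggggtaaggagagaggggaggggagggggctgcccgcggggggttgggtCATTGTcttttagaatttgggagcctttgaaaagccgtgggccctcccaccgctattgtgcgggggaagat
Sox2: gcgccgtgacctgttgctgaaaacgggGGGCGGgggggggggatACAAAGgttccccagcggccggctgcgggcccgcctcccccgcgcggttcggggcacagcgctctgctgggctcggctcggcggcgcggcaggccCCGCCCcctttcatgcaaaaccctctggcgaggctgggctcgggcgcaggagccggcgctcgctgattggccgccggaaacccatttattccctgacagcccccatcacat
The Utf1 stretch held 3 GC boxes, 2 of them overlapping, and neither SOX motif. In Lin28a it held 1 CATTGT, and in Sox2 1 ACAAAG with 2 GC boxes. Among 32851 RefSeq promoters of 300 bases, 35.7% held a GC box, 18.7% ACAAAG and 12.6% CATTGT. In the uncut 300-base entries, to which these shares apply, Utf1 held 4 GC boxes and Lin28a 1, with the other counts unchanged. The OCT4 octamer ATGCAAAT, present in 1.74% of promoters, was in none of the 5 promoter entries matched to Pou5f1, Sox2, Utf1 and Lin28a. These matches describe letters in a window and say nothing of binding.

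Utf1 and Lin28a were the members whose levels separated the groups most, and Pou5f1 and Sox2 those that separated them least. The highest group mean exceeded the lowest 37.3-fold for Utf1, 7.53-fold for Lin28a, 3.65-fold for Sall4, 2.62-fold for Pou5f1 and 2.13-fold for Sox2. In a joint test for any difference among the 7 groups, 3 of the 5 members passed an edgeR adjusted p of 0.05, beside 22.6% of all genes tested. The adjusted p from edgeR's quasi-likelihood test was 2.55e-05 for Utf1, 0.000472 for Lin28a and 0.00935 for Sall4, and missed the threshold for Sox2 (0.0752) and Pou5f1 (0.0965). Among the 6 cultured groups alone the same 3 members passed, beside 13.1% of all genes, with adjusted p of 2.07e-05, 0.000938 and 0.0462 in edgeR. The Sall4 calls were lost when a long-transcript measure entered the fit, as described with that gene. The 6-group call of Sall4 was lost in 17 of 31 alternative settings, 16 of which left out a single library, with adjusted p from 0.0507 to 0.143 in those 16. With both libraries that stood apart left out, the 7-group test also called Sox2 (edgeR adjusted p = 0.0284) and Pou5f1 (0.0464). Leaving out replicate 1 of 2i+LIF PO alone called Sox2 as well (0.0297), as did leaving out replicate 2 (0.0429) or replicate 3 (0.0467) of 2i+LIF LP.

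**Figure D1:**
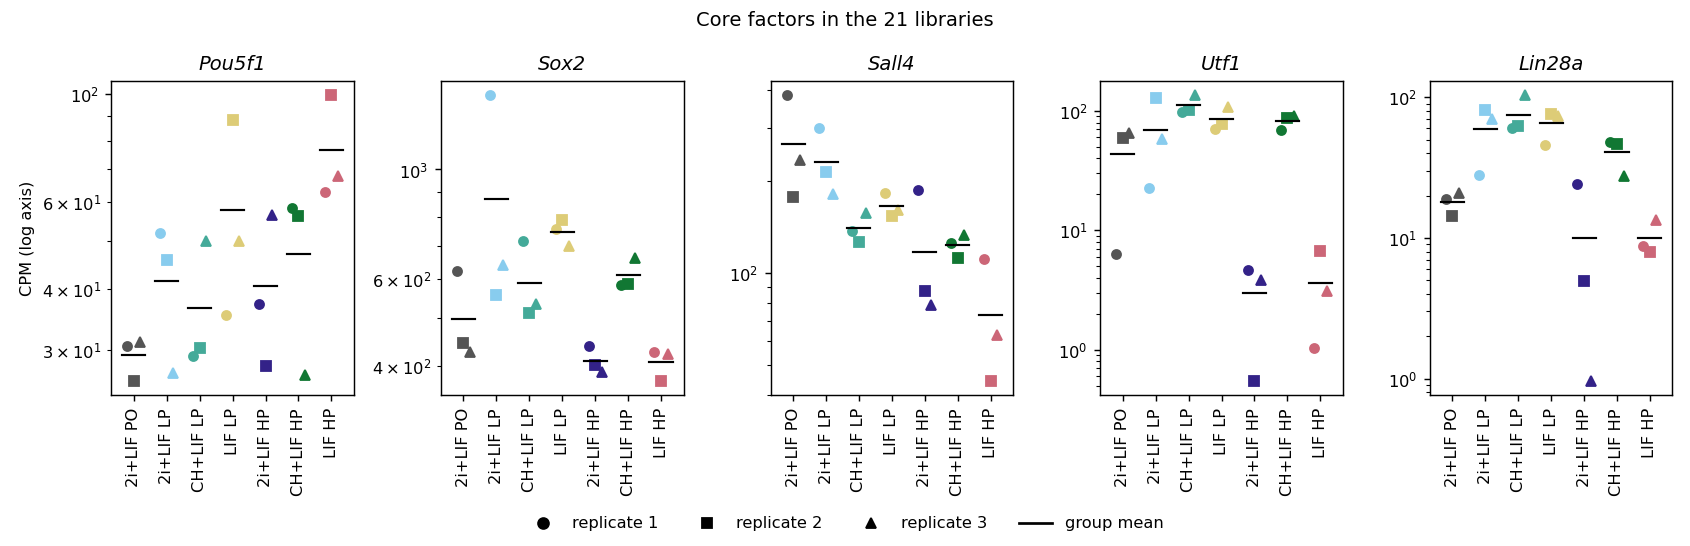
CPM of each core factor (log axis, TMM-scaled) in the 21 libraries by group; symbols are replicates and bars are group means (n = 3). Utf1 falls from group means of 43.6 to 112 CPM in 5 groups to 3.01 in 2i+LIF HP and 3.63 in LIF HP, while Sox2 stays between group means of 408 and 870 CPM.

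Pou5f1 (ENSMUSG00000024406, chromosome 17, 35506018 to 35510772, plus strand, GRCm38, as all gene positions here) was detected in every library at 25.9 to 99.2 CPM. It had 30.6, 25.9 and 31.2 CPM in 2i+LIF PO, and 51.9, 45.6 and 26.8 CPM in 2i+LIF LP. In CH+LIF LP it had 29.1, 30.3 and 50.1 CPM, and in LIF LP 35.3, 88.3 and 50.02 CPM. At HP its values were 37.2, 27.8 and 56.5 CPM for 2i+LIF HP, then for CH+LIF HP 58.4, 56.3 and 26.7 CPM, and in LIF HP 62.9, 99.2 and 68.0 CPM. The 3 LIF HP libraries lay above PO, 2i+LIF HP and CH+LIF HP, and overlapped LIF LP. Of all genes, 32.5%, 28% and 29.9% were free of overlap in those 3 comparisons. No 2 neighbours in the order of group means, which ran from LIF HP (76.7 ± 19.6) through LIF LP (57.9 ± 27.4) and CH+LIF HP (47.1 ± 17.7) to PO (29.2 ± 2.90), were free of overlap.

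Pou5f1 rose in 1 of 15 pair comparisons, from PO to LIF HP, by a log2 fold change of 1.39 (SE 0.40, 2.63-fold, edgeR adjusted p = 0.0231). Of the 5 members 3 were called in that comparison, beside 12.3% of all genes. The Pou5f1 call was lost without PO replicate 1 (edgeR adjusted p = 0.0598), 2 (0.0643) or 3 (0.0540), and without LIF HP replicate 2 (0.136) or 3 (0.0540). Against LIF LP, LIF HP gave 0.41 (SE 0.39, edgeR adjusted p = 0.545). Its other pair comparisons gave log2 differences from -0.19 to 0.98, of which none was called.

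The count of Pou5f1 carries a limit of its own. Its antisense gene Gm19553 covers 317 of its 2248 exon bases and had no count in any library. Of the 50-base words in its 1362-base transcript, 15.9% also occur, on either strand, in transcripts of Gm19553 or Gm5712. Among words in the last 500 bases 29.7% do. Words shared with Gm19553 can be the same genomic bases, where reads still align uniquely. These shares therefore do not measure reads lost to multiple alignment. Per kilobase of exon, Pou5f1 had 11.5 to 44.1 CPM, below Sox2 (181 to 687) in all 21 libraries, as were Sall4, Utf1 and Lin28a. The part that shared sequence has in this level was not tested.

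Sox2 (ENSMUSG00000074637, chromosome 3, 34650405 to 34652461, plus strand) had the narrowest span of group means. In edgeR it was called in 0 of 15 pair comparisons, with an unadjusted p under 0.05 in 3. It had 623, 446 and 427 CPM in 2i+LIF PO, and 756, 789 and 700 CPM in LIF LP. In 2i+LIF HP it had 440, 401 and 389 CPM, and in LIF HP 427, 373 and 423 CPM. Both 2i+LIF HP and LIF HP therefore lay below LP of the same medium and below CH+LIF HP, and overlapped PO. Between CH+LIF HP and those groups, 19.7% and 29.9% of all genes did not overlap. CH+LIF kept 718, 512 and 534 CPM at LP and 583, 587 and 661 CPM at HP. In 2i+LIF LP replicates 2 and 3 had 558 and 640 CPM, but replicate 1, the library rich in Gm42418, had 1413 CPM, the highest of all 21.

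From LP to HP the log2 fold change of Sox2 was -1.09 in 2i+LIF (SE 0.34, edgeR adjusted p = 0.0741), -0.88 in LIF (SE 0.34, 0.0964) and 0.05 in CH+LIF (SE 0.34, adjusted p = 1). LP and HP did not overlap in 2i+LIF or in LIF, as for 16.8% and 39.3% of all genes. DESeq2 called both differences, at adjusted p of 0.0105 and 0.0377. Leaving out replicate 1 of 2i+LIF LP brought that in LIF to an edgeR adjusted p of 0.0346. Leaving out PO replicate 1 (0.0385) or 2i+LIF LP replicate 2 (0.0495) brought the difference in 2i+LIF past the threshold. That difference shrank to -0.52 without 2i+LIF LP replicate 1 (edgeR adjusted p = 0.469), to -0.54 without both libraries that stood apart (0.300) and to -0.60 with limma voom (adjusted p = 0.233). With the long-transcript measure introduced with Sall4 as a covariate, the difference in LIF was -0.26 (edgeR adjusted p = 0.739).

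Target genes on which OCT4 and SOX2 are known to act together fell in larger number from PO to 2i+LIF HP than in any other pair comparison of the list. Of 14 listed targets, all tested, 9 fell from PO to 2i+LIF HP and none rose, beside 4.79% of all genes that fell. From LP to HP within 2i+LIF, whose file names carry the same number, 3 of 14 fell (Lefty1, Lefty2 and Tdgf1), beside 2.05% of all genes. The median log2 fold change of the list from PO was -1.59, against -0.09 over all genes. The 9 included Nanog, a core factor itself (-1.41, edgeR adjusted p = 0.0173), and Fgf4, the ligand that drives ERK signalling in these cells (-2.11, 0.000602). Also among them were Zfp42, the reporter locus (-2.40, 0.000183), and Tdgf1, the Nodal co-receptor Cripto (-3.35, 4.89e-05). Nanog and Zfp42 were also lower than PO in all 3 LP groups. In the same comparison Pou5f1 and Sox2 were not called: Pou5f1 gave 0.46 (SE 0.40) and Sox2 -0.28 (SE 0.34), with edgeR adjusted p of 0.497 and 0.642.

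Tdgf1, Lefty1 and Lefty2 are described here because their values stood out in that list. Tdgf1 had 36.5 ± 27.7 CPM (SD, n = 3) in 2i+LIF HP, and group means between 375 and 549 CPM in the other 6 groups. Lefty2, a secreted Nodal inhibitor, had 12.0 ± 10.4 CPM in 2i+LIF HP against 237 ± 179 in 2i+LIF LP and 264 ± 69.3 in CH+LIF HP. Its relative Lefty1 had 6.63 ± 3.72 CPM in 2i+LIF HP and 305 ± 93.4 in LIF LP, the highest group. The change of Tdgf1 from LP to HP in 2i+LIF differed from that in CH+LIF by 3.47 and from that in LIF by 3.53 on the log2 scale, with edgeR adjusted p of 0.0219 and 0.00681, beside 0.0188% and 0.15% of all genes called. The r of Lefty1, Lefty2 and Tdgf1 with the long-transcript measure was -0.13, 0.02 and -0.04.

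In LIF HP the same targets divided. Against 2i+LIF HP, 6 of 14 were higher and none lower, namely Fgf4, Lefty1, Lefty2, Spp1, Upp1 and Tdgf1, beside 2.1% of all genes that were higher. Nanog had 388 ± 165 CPM in LIF HP, beside 449 ± 136 in PO, and was not called between them. In that comparison Zfp42, Rif1 and Trim8 were lower and Upp1 higher, beside 12.3% of all genes called in either direction, with r of 0.39, 0.92, 0.85 and -0.73 with the long-transcript measure. Against LIF LP, by contrast, Lefty1 (-2.66, edgeR adjusted p = 0.00422) and Lefty2 (-1.88, 0.0437) fell and none of the 14 rose, beside 4.63% of all genes that fell.

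**Figure D2:**
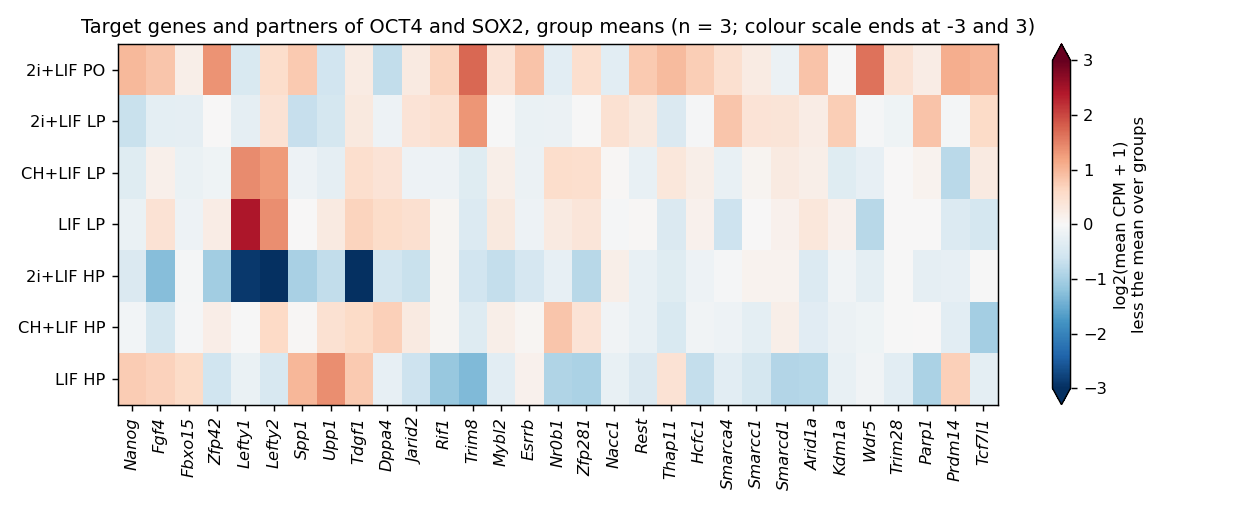
Group means (n = 3) of 14 target genes and of further partners of OCT4 and SOX2, as log2(mean CPM + 1) less each gene's mean over the 7 groups; colours end at -3 and 3. Lefty1, Lefty2 and Tdgf1 are darkest blue in 2i+LIF HP, where Tdgf1 averaged 36.5 CPM.

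Partner proteins of OCT4 and SOX2 made up a list of 19 genes that includes chromatin remodellers and corepressors. Against PO some were lower and none higher in every cultured group. At LP the number was 2 of 19 in 2i+LIF, 4 in CH+LIF and 3 in LIF, with list medians of -0.50, -0.65 and -0.59. At HP it was 4 in 2i+LIF, 2 in CH+LIF and 6 in LIF, with medians of -0.88, -0.63 and -0.78. In either direction, 5.06% to 12.3% of all genes were called in these comparisons. Of the 6 in LIF HP, Rif1 (r = 0.92), Parp1 (0.75), Arid1a (0.64), Hcfc1 (0.47), Zfp281 (0.42) and Wdr5 (0.18) had these correlations with the long-transcript measure. From LIF LP to LIF HP 2 of 19 fell, beside 4.63% of all genes: Zfp281, a zinc-finger factor (-1.34, edgeR adjusted p = 0.0466), and Smarcd1, a subunit of the BAF remodelling complex (-1.05, 0.0495). The r of Smarcd1 with the long-transcript measure was 0.39. Wdr5, a subunit of histone H3K4 methyltransferase complexes, had 366 ± 32.1 CPM in PO and 66.2 ± 29.0 to 115 ± 28.7 in the cultured groups. It was lower than PO in all 6 of them, with edgeR adjusted p from 0.000196 to 0.0111. That contrast cannot be told apart from any batch marked by the other number in the PO file names.

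Sall4 (ENSMUSG00000027547, chromosome 2, 168748332 to 168767943, minus strand) was highest in PO and lowest in LIF HP. It had 383, 178 and 236 CPM in 2i+LIF PO and 299, 214 and 182 CPM in 2i+LIF LP. In CH+LIF LP it had 138, 127 and 157.95 CPM, and in LIF LP 184, 154.7 and 161 CPM. At HP its values were 187, 87.2 and 78.6 CPM for 2i+LIF HP, then for CH+LIF HP 126, 112 and 134 CPM, and in LIF HP 111, 44.3 and 62.8 CPM. All 3 LIF HP libraries lay below PO, LIF LP and CH+LIF HP, in comparisons where 32.5%, 39.3% and 29.9% of all genes did not overlap, while 2i+LIF HP overlapped PO, all LP groups and both other HP groups.

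Sall4 fell from PO to LIF HP by a log2 fold change of -1.86 (SE 0.39, 3.63-fold, edgeR adjusted p = 0.00371). Smaller falls just passed the threshold from LIF LP to LIF HP (-1.19, SE 0.38, edgeR adjusted p = 0.0475) and from PO to 2i+LIF HP (-1.17, SE 0.38, 0.0465). Those last groups overlapped. The first of these was lost in 16 of 31 alternative settings and the second in 17, mostly by leaving out 1 library. Without LIF HP replicate 2, for instance, the fall in LIF was -0.95 (edgeR adjusted p = 0.215). Without PO replicate 1, the mitochondria-rich library, the fall to 2i+LIF HP was -0.81 (0.162).

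Sall4 levels moved with a property of the libraries that concerns transcript length. The measure used was the median centred log2 CPM of the 1065 tested genes with at least 10199 exon bases, less that of the 1068 with at most 1750. It ranged from -1.72 to -0.59 in the LIF HP libraries, below all 18 others, and reached 1.59 in PO replicate 1 and 1.22 in 2i+LIF LP replicate 1. Over 21 libraries, which share this measure's genes and depth, Pearson's r with it was 0.88 for Sall4, 0.67 for Sox2 and -0.53 for Pou5f1. For Lin28a it was 0.31 and for Utf1 0.20. With the measure as a covariate, the Sall4 fall from PO to LIF HP was -0.86 (edgeR adjusted p = 0.208) and that from LIF LP -0.34 (0.652). The difference from PO to 2i+LIF HP was then -0.87 and passed (edgeR adjusted p = 0.0368). The 7-group test for Sall4 then gave 0.215, and the rise of Pou5f1 from PO to LIF HP gave 0.99 (0.347). Such an imbalance of long and short transcripts and the medium cannot be told apart in the LIF HP group.

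**Figure D3:**
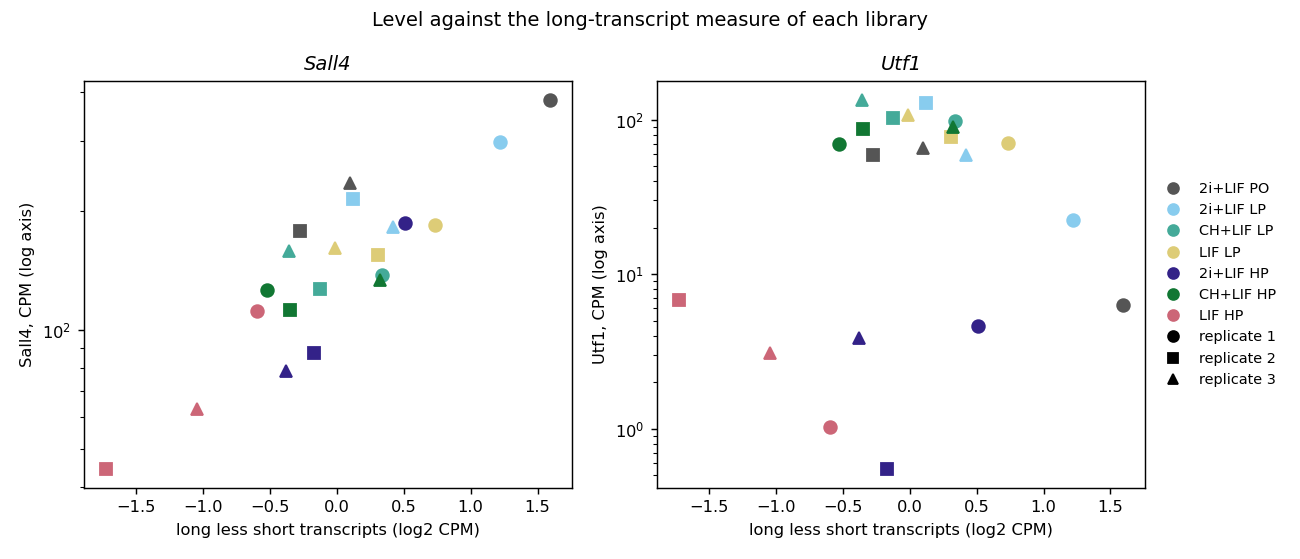
CPM (log axis) of Sall4 and Utf1 against the long-transcript measure of each of 21 libraries, coloured by group. Sall4 climbs with the measure (r = 0.88), whereas Utf1 is low in LIF HP and 2i+LIF HP at measures from -1.72 to 0.51.

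The complex that SALL4 recruits was represented by 12 NuRD subunits. From LIF LP to LIF HP 1 of 12 fell, near the 4.63% of all genes that did: the deacetylase Hdac2 (-1.02, edgeR adjusted p = 0.0278), and the list's median was -0.04. Hdac2 had an r of 0.56 with the long-transcript measure.

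Among the paralogues of the members, 14 of 17 listed genes were tested and 5 fell from LIF LP to LIF HP with none rising: Pou2f1, Pou3f1, Sox1, Sox11 and Sall3. The background of that fall was 4.63% of all genes. Sox11, a SOXC factor of early neural cells, had 37.7 ± 4.57 CPM in LIF LP and 1.44 ± 1.56 in LIF HP (-4.44, edgeR adjusted p = 0.00147). Sox1, a neural relative of Sox2, had 48.7 ± 7.99 against 6.66 ± 2.28 CPM (-2.82, 0.0154). Sall3 had 51.8 ± 8.76 against 10.9 ± 0.54 CPM (-2.23, 0.00343), and Pou2f1, which encodes the ubiquitous factor OCT1, 133 ± 38.7 against 46.2 ± 23.6 CPM (-1.53, 0.0288). Pou3f1 had a group mean of 5.69 CPM in LIF LP and no count in LIF HP. With the long-transcript measure r was 0.61 for Pou2f1, 0.43 for Sall3, 0.20 for Sox11 and 0.07 for Sox1. Sall1, a close relative of Sall4, had group means of 29.8 to 79.5 CPM and was not called in any comparison.

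Utf1 (ENSMUSG00000047751, chromosome 7, 139943789 to 139945112, plus strand) was nearly lost in 2i+LIF HP and LIF HP and retained in CH+LIF HP. It had 4.65, 0.545 and 3.83 CPM in 2i+LIF HP and 1.03, 6.77 and 3.09 CPM in LIF HP, from 10, 1 and 4 reads and from 2, 11 and 3. In CH+LIF HP it had 69.4, 86.8 and 89.9 CPM, or 107, 182 and 118 reads. All 6 libraries of 2i+LIF HP and LIF HP lay at or under 6.77 CPM, and none overlapped CH+LIF HP. Groups were free of overlap for 19.7% of all genes between CH+LIF and 2i+LIF at HP and for 29.9% between LIF and CH+LIF.

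At LP the media overlapped. Utf1 had 98.8, 102 and 135 CPM in CH+LIF LP, 71.1, 77.0 and 108 in LIF LP, and 22.4, 127 and 58.7 in 2i+LIF LP. The low value of 22.4 CPM was in replicate 1, the Gm42418-rich library, which also had the lowest Dusp6 and Lin28a of the LP libraries. None of the 5 members was called between any media at LP, beside 0% of all genes for CH+LIF against 2i+LIF, 0.489% for LIF against 2i+LIF and 0.047% for LIF against CH+LIF. At an unadjusted p under 0.05 edgeR had 950 genes in the first of these and 0 members in any of them, and DESeq2 called 0 members in it.

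Between media at HP, Utf1 was 27.0-fold higher in CH+LIF than in 2i+LIF (log2 4.76, SE 0.75, edgeR adjusted p = 0.000875). It was the only member of 5 called there, beside 2.02% of all genes. From CH+LIF HP to LIF HP it was 22.5-fold lower (log2 -4.49, SE 0.74, edgeR adjusted p = 0.00178), again the only member called, beside 1.47% of all genes. LIF HP and 2i+LIF HP differed by 0.27 (SE 0.90, adjusted p = 0.907), and neither edgeR nor DESeq2 called a member between them, beside 3.78% of all genes in edgeR. At an unadjusted p under 0.05 edgeR had 1 member there, Pou5f1.

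From LP to HP, Utf1 changed by -4.53 on the log2 scale in 2i+LIF (SE 0.75, edgeR adjusted p = 0.000721) and by -4.55 in LIF (SE 0.74, 0.000433). In CH+LIF the change was -0.45 (SE 0.57, adjusted p = 1), where edgeR called 0 of 5 members, with 0 at an unadjusted p under 0.05, and 0.0094% of all genes. Utf1 in CH+LIF HP nevertheless lay below CH+LIF LP without overlap, as for 15.1% of all genes. The members called from LP to HP numbered 2 in 2i+LIF, beside 3.67% of all genes, and 3 in LIF, beside 9.96%. All of them fell. Between LIF and CH+LIF, the changes of Utf1 differed by -4.10 (SE 0.93, edgeR adjusted p = 0.0459), beside 0.423% of all genes called for that difference. Leaving out any 1 of the 12 libraries of those 4 groups lost this call, with adjusted p between 0.0639 and 0.140. Taken in the opposite order, the change in CH+LIF less that in 2i+LIF was 4.08 (SE 0.94) with an edgeR adjusted p of 0.194, and 0.000241 with both libraries that stood apart left out; 0.0188% of all genes were called for it.

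In PO, Utf1 had 6.33, 59.1 and 65.3 CPM, and the low value belonged to replicate 1, the mitochondria-rich library. Against PO it fell in 2i+LIF HP by 3.86 (SE 0.74, edgeR adjusted p = 0.00153) and in LIF HP by 3.60 (SE 0.73, 0.00323). The LIF HP range met that of PO through replicate 1 alone. All 6 pair calls of Utf1 stayed past the threshold in all 31 alternative settings, including the long-transcript covariate, under which the fall in LIF was -6.60 (edgeR adjusted p = 5.67e-06). Of the 50-base words of its transcript, none occurs in another gene.

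**Figure D4:**
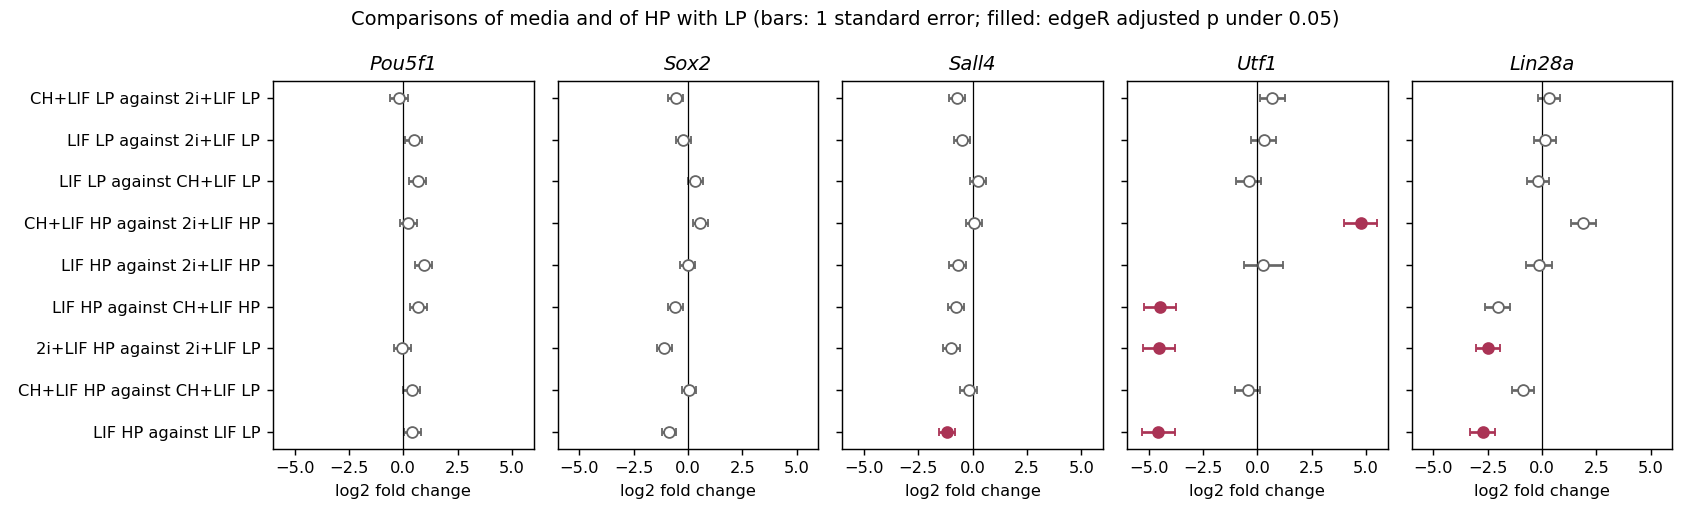
Log2 fold change with 1 standard error (horizontal axis) of each core factor in 9 comparisons of media and of HP with LP; filled symbols have an edgeR adjusted p under 0.05. Utf1 is filled 4 times, from -4.55 to 4.76, Lin28a 2 times and Sall4 1 time, at -1.19.

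Lin28a (ENSMUSG00000050966, chromosome 4, 134003330 to 134018841, minus strand) was high at LP in all media and low in 2i+LIF HP and LIF HP, like Utf1, but it was also low in PO. It had 60.6, 62.3 and 103 CPM in CH+LIF LP, 45.7, 76.4 and 74.1 in LIF LP, and 28.1, 80.9 and 70.5 in 2i+LIF LP. In LIF HP it had 8.76, 8.01 and 13.4 CPM and in 2i+LIF HP 24.2, 4.91 and 0.958 CPM, or 52, 9 and 1 reads. In CH+LIF HP it had 48.0, 46.3 and 27.4 CPM, above both other HP groups and below CH+LIF LP. Of all genes, 19.7% did not overlap between CH+LIF HP and 2i+LIF HP, 29.9% between CH+LIF HP and LIF HP, and 15.1% between CH+LIF HP and CH+LIF LP. PO, at 19.0, 14.4 and 20.9 CPM, lay below each LP group and above LIF HP. Such separation from PO held for 18.7% of all genes in 2i+LIF LP, 27.4% in CH+LIF LP, 31.7% in LIF LP and 32.5% in LIF HP.

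Lin28a fell from LP to HP in LIF by 2.73 on the log2 scale (SE 0.58, 6.62-fold, edgeR adjusted p = 0.00415) and in 2i+LIF by 2.47 (SE 0.56, 5.54-fold, 0.0116). The fall in LIF passed in all 31 alternative settings. That in 2i+LIF was -4.17 without 2i+LIF HP replicate 1, the library at 24.2 CPM, and still passed. It was lost without 2i+LIF HP replicate 2 (edgeR adjusted p = 0.0902) or 3 (0.0528), and with only the groups compared in the fit (0.260). In CH+LIF the change was -0.88 (SE 0.51, adjusted p = 1), with no overlap between LP and HP, as for 15.1% of all genes. The differences between these changes were not called. The change in CH+LIF less that in 2i+LIF was 1.59 (SE 0.75, edgeR adjusted p = 0.735). The change in LIF less that in CH+LIF was -1.84 (SE 0.76, edgeR adjusted p = 0.351).

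Between media at HP, Lin28a narrowly missed the threshold. CH+LIF exceeded 2i+LIF by 1.91 (SE 0.56, edgeR adjusted p = 0.0790), and LIF was below CH+LIF by -2.05 (SE 0.57, 0.0734). Both passed with the 2 libraries that stood apart left out, at edgeR adjusted p of 0.0181 and 0.0120. Leaving out 2i+LIF HP replicate 1 alone gave 3.61 (0.00148) and -2.04 (0.0198). Omitting 2i+LIF LP replicate 1 likewise gave 0.0344 and 0.0285, and the second difference also passed without PO replicate 1 (0.0468) or 2i+LIF HP replicate 3 (0.0319).

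Against PO, Lin28a rose in CH+LIF LP by 2.05 (SE 0.53, 4.15-fold, edgeR adjusted p = 0.0173) and in LIF LP by 1.85 (SE 0.53, 3.61-fold, 0.0221). In each it was the 1 member called, beside 8.31% and 12% of all genes. The first was lost without PO replicate 2 (0.0605) or CH+LIF LP replicate 3 (0.0732), and the second without PO replicate 2 (0.0782), LIF LP replicate 2 (0.0800) or LIF LP replicate 3 (0.0673). For 2i+LIF LP the difference was 1.73 (SE 0.53, 0.0526), with 0 members and 5.06% of all genes called, and it passed with PO replicate 1 (0.0495) or 2i+LIF LP replicate 1 (0.0169) left out. It also passed without 2i+LIF HP replicate 1 (0.0168), 2 (0.0483) or 3 (0.0231), libraries of neither group compared. Against PO, 2 members were called in 2i+LIF HP, beside 10.6% of all genes, and 0 in CH+LIF HP, beside 5.82%; edgeR had 2 members at an unadjusted p under 0.05 in each of 2i+LIF LP and CH+LIF HP, and DESeq2 called 1 in each.

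**Figure D5:**
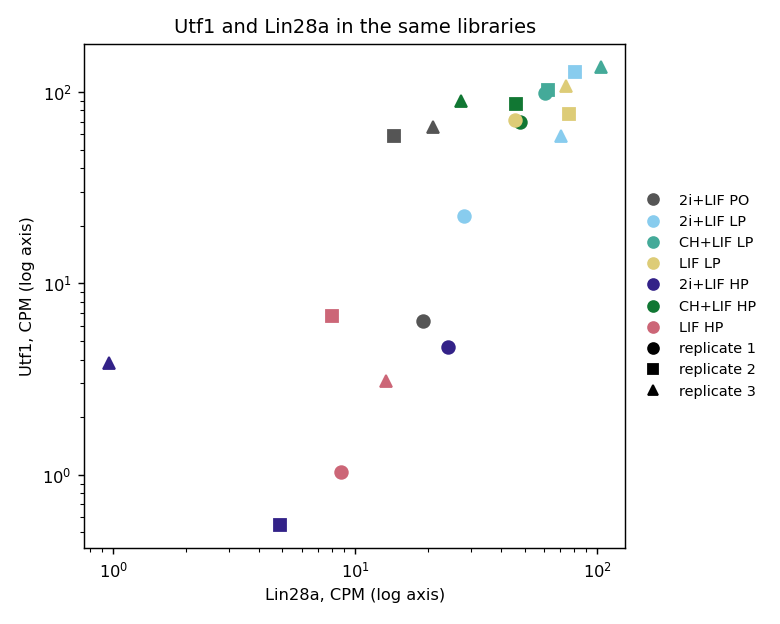
CPM of Utf1 against Lin28a (both log axes) in the 21 libraries, coloured by group. The 6 libraries of 2i+LIF HP and LIF HP lie at or under 6.77 CPM of Utf1 and 24.2 CPM of Lin28a, and PO lies low for Lin28a at 14.4 to 20.9 CPM.

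Across the 21 libraries, log2 CPM of Utf1 and Lin28a had a Pearson r of 0.82 and a Spearman rho of 0.85, the highest among the 10 pairs of members. These points share groups and libraries, and after subtraction of group means r was 0.22. Sox2 and Sall4, the next pair, had an r of 0.58, and 0.51 within groups. Sox2 had an r of 0.56 with Lin28a and 0.47 with Utf1, and -0.26 and -0.66 within groups. Pou5f1 had a negative r with each of the other members, from -0.48 with Sall4 to -0.05 with Sox2. Ratios within a library, which need no scaling between libraries, showed similar divisions with exceptions. The mean log2 ratio of Utf1 to Sox2 reads, with 0.5 added to each, was -2.90 ± 0.16 (SD, n = 3) in CH+LIF HP, -7.31 ± 1.41 in 2i+LIF HP and -6.99 ± 1.33 in LIF HP. In PO it was -4.06 ± 2.17 and in 2i+LIF LP -3.84 ± 1.94. Replicate 1 of each, at -6.56 and -5.95, lay within the LIF HP range of -8.37 to -5.72. The mean log2 ratio of Pou5f1 to Sox2 was -2.43 ± 0.46 in LIF HP, above all libraries of PO at -4.07 ± 0.28. Pou5f1 and Sox2 had r of -0.53 and 0.67 with the long-transcript measure, whose part in this ratio was not tested. Ratios of Sall4 to Sox2 ran from -0.96 ± 0.32 in PO to -2.58 ± 0.58 in LIF HP.

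LIN28A acts on let-7 precursors, and the let-7 microRNAs, which were not measured here, recognise targets through a shared seed. In RefSeq, 10 mature mouse let-7 and miR-98 sequences carry the seed GAGGUAG at bases 2 to 8, in capitals in 2 of them that differ outside it.
let-7a: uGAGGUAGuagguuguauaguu
let-7g: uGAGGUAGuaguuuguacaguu
Of 18 listed genes of the LIN28 and let-7 pathway 17 were tested. From LIF LP to LIF HP 3 fell and none rose, beside 4.63% of all genes. Among them were Trim71, a let-7 target and RNA-binding ubiquitin ligase (-1.46, edgeR adjusted p = 0.0466), and Tut4, the uridylyltransferase that LIN28A recruits to let-7 precursors (-1.66, 0.0124). In 2i+LIF, 2 fell from LP to HP, beside 2.05% of all genes: Trim71 (-1.68, 0.0411) and Hmga2, a chromatin protein and classic let-7 target (-2.20, 0.00139). Hmga2 had 202 ± 24.6 CPM in 2i+LIF LP and 43.9 ± 10.3 in 2i+LIF HP. It already differed between media at LP, with 63.1 ± 19.4 CPM in LIF LP (-1.68 against 2i+LIF LP, 0.0359), where Lin28a gave 0.12 (SE 0.51). Trim71, Hmga2 and Tut4 had r of 0.86, 0.71 and 0.60 with the long-transcript measure, and its part in their falls was not tested. The paralogue Lin28b stayed low, at group means of 3.18 to 9.73 CPM, and was not called in any comparison.

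For each member the 3 genes with the closest pattern over the 21 libraries were taken from 5723 genes with a mean of at least 20 CPM. Those of Utf1 included Dnmt3l, a cofactor of de novo DNA methylation (r = 0.91), and Parvb, an adhesion protein (0.89). Dnmt3l had 175 ± 37.3 CPM in CH+LIF LP, 89.1 ± 16.9 in CH+LIF HP, 6.96 ± 2.86 in 2i+LIF HP and 1.06 ± 1.35 in LIF HP. L1td1, an RNA-binding protein of LINE-1 origin, was nearest to Lin28a (0.90), followed by Dusp27 and Parvb (both 0.87). Its level was 995 ± 211 CPM in LIF LP, 628 ± 33.1 in CH+LIF HP, 160 ± 27.1 in LIF HP and 118 ± 89.9 in 2i+LIF HP. Parvb was thus common to Utf1 and Lin28a.

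The genes most like Sall4 were Mdn1 (r = 0.94), Setd2 (0.93) and Bptf (0.92), with 21836, 10754 and 14081 exon bases against a median of 4537 over tested genes. Those most like Sox2 included Luc7l2 (0.88) and Diaph3 (0.86), of 12084 and 5569 bases. Pou5f1 was closest to Morn2 (0.82), Cmc2 (0.79) and Fuca1 (0.79), of 656, 2043 and 3276 bases. Morn2 had 12.4 ± 3.97 CPM in PO and 37.7 ± 8.98 in LIF HP.

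All 8 listed embryonic stem cell markers (Nanog, Zfp42, Esrrb, Tdgf1, Dppa5a, Fgf4, Fbxo15 and Nr0b1) were detected in every group, as the labelled cell type requires. Their summed level was 473 to 931 CPM in 2i+LIF HP, under that of every other library, 1697 to 2444 CPM in LIF HP and 1380 to 1722 CPM in CH+LIF HP. The sum of 6 trophectoderm markers was 26.0 to 55.1 CPM in 2i+LIF HP against at most 14.9 elsewhere. Only 2 of the 6 were tested, Cdx2 and Krt7, and edgeR called both higher in 2i+LIF HP than in PO, 2i+LIF LP and CH+LIF HP, beside 10.6%, 3.67% and 2.02% of all genes called in either direction. Cdx2, the defining factor, had 12.6 ± 7.73 CPM there and no count in CH+LIF LP, LIF LP or CH+LIF HP, and Krt7 had 23.5 ± 18.8. Elf5 had no count in any group. The part these markers have in the low Utf1 and Lin28a of 2i+LIF HP was not tested. In LIF HP the trophectoderm sum was 5.15 to 14.9 CPM. Mesendoderm markers summed to 24.0 to 49.1 CPM over 6 genes in 2i+LIF HP and to at most 35.1 elsewhere, and edgeR called the mesoderm factor T higher there than in 2i+LIF LP, PO, CH+LIF HP and LIF HP, the last beside 3.78% of all genes called. The sum of 6 2-cell-like genes, none of them tested, was 9.58 to 13.0 CPM in 2i+LIF HP and at most 7.79 elsewhere. The neural sum over 6 genes, which holds Sox1, was 110 to 253 CPM in the LP libraries and 36.9 to 72.4 in PO. At HP it was 35.5 to 156.2 CPM in 2i+LIF, 57.2 to 59.7 in CH+LIF and 88.1 to 144.8 in LIF. Of 4 neural genes tested, Sox1, Pax6 and Tubb3 were higher in LIF LP than in PO, a comparison in which Lin28a also rose and 12% of all genes were called in either direction. The primitive endoderm sum over 7 genes, none of them tested, was 4.18 to 24.5 CPM in 2i+LIF HP with a median of 12.5, and at most 8.39 elsewhere. Fibroblast markers (6 genes) summed to at most 36.4 CPM in any library. The part of these markers in the levels of Utf1 and Lin28a was not tested.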

How the data were processed

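Per the labels' protocols, 125 ng of total RNA per sample went to an mRNA-seq service. The authors deposited 1 table per library, with raw whole counts for each Ensembl gene. The submitters' processing notes name bcl2fastq, STAR 2.6.0a, HTSeq and mm10; the annotation and strand setting are not given in the sources used here, so a gene and its antisense partner cannot be told apart. The 5 closing entries of each table stayed out of library sizes and tests. Gene counts per library ranged from 1132126 to 3783043. Of 31053 IDs, 31011 matched GENCODE M21, which gave symbols and positions; all 119 list genes matched.

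The deposited counts of all 21 libraries entered 1 quasi-likelihood fit in edgeR 4.0.16 (R 4.3.3) with a coefficient per group, TMM scaling and filterByExpr (10643 genes, 14 residual degrees of freedom). It gave 15 pair tests, 3 tests of differences between changes and 2 joint tests, all two-sided; p-values were adjusted by Benjamini-Hochberg per comparison, with a threshold of 0.05. A fall means a log2 fold change below 0. CPM used TMM-scaled library sizes, and log2 CPM a prior count of 2. Replicates differed by more than sampling noise (lowest chi-square per degree of freedom 5.21), so each counted once. Alternatives were DESeq2 1.42.0, its size factors, no filter, thinned counts, only the groups compared, a replicate block, limma 3.58.1 voom with quality weights, exclusion of mitochondrial genes and Gm42418, omission of both libraries that stood apart, and of each library in turn; the long-transcript covariate was added after the data were seen. The tests were checked on simulated data. Genes named were the members, the genes of the lists, and the 3 genes most like each member; some of these are not reported here. Members and lists were chosen with earlier results of these data known. Deviations of libraries with the same replicate number all correlated above 0.1 in 1 of 15 comparisons (2i+LIF LP with PO: 0.40, 0.34 and 0.18). Not every library there correlated best with its own number. Each did so in 1 other comparison (LIF HP with 2i+LIF HP: 0.33, 0.25 and 0.05).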

Additional observations from a re-analysis of the deposited data

Results flagged for a closer look

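Utf1 differed between media in its change from LP to HP. The change in LIF less that in CH+LIF was -4.10 on the log2 scale (SE 0.93, edgeR adjusted p = 0.0459), from 85.3 ± 19.7 to 3.63 ± 2.91 CPM in LIF and from 112 ± 20.1 to 82.0 ± 11.0 CPM in CH+LIF (SD, n = 3). All 3 LIF HP libraries lay below all 3 LIF LP libraries, as 39.3% of all genes were free of overlap between those groups. The call was lost when any 1 of the 12 libraries of the 4 groups was left out, at edgeR adjusted p from 0.0639 to 0.140. Dusp6 was at 0, 1.23 and 0 CPM in those LIF HP libraries, and the long-transcript measure was lowest there; the part of either in the result was not tested beyond the covariate fit, which gave -6.07 (edgeR adjusted p = 0.000502).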

How the results depend on the processing

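No member result recomputed under the alternatives changed direction; results of the list genes were not recomputed. The number of the 5 members called moved as follows. From CH+LIF HP against 2i+LIF HP (1) it was 2 with DESeq2, no filter, voom or both libraries that stood apart left out. LIF HP against CH+LIF HP (1) gave 2 under the same settings and with only the groups compared, except for 3 with voom. For 2i+LIF HP against LP (2), only the groups compared gave 1 and DESeq2 3. LIF HP against LP (3) gave 4 with DESeq2, only the groups compared, voom or both libraries out, and 2 with no mitochondrial genes or Gm42418 or with the long-transcript covariate. Against PO, 2i+LIF LP (0) gave 1 with DESeq2, its size factors, no filter, voom, no mitochondrial genes or Gm42418, both libraries out, or the long-transcript covariate. CH+LIF LP (1) gave 2 with no filter or voom, LIF LP (1) gave 2 with voom or both libraries out, and 2i+LIF HP (2) gave 1 with only the groups compared, no mitochondrial genes or both libraries out. CH+LIF HP (0) gave 1 with DESeq2 and 2 with voom, and LIF HP (3) gave 1 with the covariate. For the difference of changes between CH+LIF and 2i+LIF (0), DESeq2, no filter, voom, both libraries out and the covariate gave 1; for LIF and CH+LIF (1), only the groups compared gave 2 and voom 3. The 7-group test (3) gave 5 with voom or both libraries out, 4 with DESeq2 and 2 with the covariate; the 6-group test (3) gave 4 with DESeq2, voom or both libraries out and 2 with the covariate. The cause was not tested.

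Leaving out 1 library at a time gave 1 to 2 members for CH+LIF HP against 2i+LIF HP and LIF HP against CH+LIF HP, 1 to 3 for 2i+LIF HP against LP, and 2 to 4 for LIF HP against LP. Against PO it gave 0 to 1 for each LP medium, 1 to 3 for 2i+LIF HP and 2 to 3 for LIF HP. It gave 0 to 1 for the differences of changes of CH+LIF with 2i+LIF and LIF with CH+LIF, 3 to 4 for the 7-group test and 2 to 4 for the 6-group test. Sall4 between LIF LP and LIF HP was lost without any LIF LP library (edgeR adjusted p 0.0846 to 0.151) or LIF HP replicate 3 (0.156).

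With a replicate block, the member counts were those given, for example 2 in 2i+LIF HP against LP and 3 in LIF HP against LP, and the block changed no member call that was recomputed. Over all genes it moved the higher and lower calls, for example from 567 and 493 to 708 and 572 for LIF HP against LP and from 1 and 0 to 2 and 1 for CH+LIF HP against LP. Genes called over all tested ranged from 52 to 634 (391 as reported) for 2i+LIF HP against LP and from 399 to 2747 (1060) for LIF HP against LP. Libraries of 2i+LIF HP and LIF HP held 1 to 11 reads of Utf1, which limits the precision of its level there.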
